A study of Rattus norvegicus with 12 samples.

Results

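Messenger RNA of 9 genes that move, store or bind iron and other metals was followed in rat lung after repeated inhalation of crystalline nanocellulose (CNC), rod-like crystals prepared from cellulose, the structural polymer of plant cell walls. The genes were taken by symbol from the deposited count table, where all 9 were found among 30045 symbols. They encode 3 importers (Tfrc, Slc11a2 and Slc39a14), the cellular iron exporter (Slc40a1), a phagosomal metal transporter (Slc11a1), both ferritin chains (Fth1 and Ftl1) and 2 metallothioneins (Mt1a and Mt2A). All 9 had enough counts to be tested. The lungs came from 12 male Fischer 344 rats, bought at 3 months of age and carrying no engineered allele according to the labels. The air group was 6 rats that breathed air (0 mg/m3) and the CNC group was 6 rats that breathed CNC at 20 mg/m3 by whole-body inhalation, with 6 hours of exposure per day on 5 days per week until 14 days of exposure were complete. A piece of lung was taken 1 day after the last exposure, and each rat gave 1 library of polyadenylated RNA. The comparison asks whether the transcripts of these genes differ between lungs that received CNC and lungs that received air.

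Cells take up transferrin-bound iron through the transferrin receptor, reduce it in the endosome and carry it into the cytosol through the divalent metal transporter encoded by Slc11a2. Iron that is not used is stored in ferritin, a hollow shell of heavy chains, which oxidise iron, and light chains, which help to form the mineral core, or leaves through ferroportin, the product of Slc40a1. Iron regulatory proteins adjust this set after transcription, by stabilising the transferrin receptor mRNA and by blocking ferritin translation when iron is scarce, so mRNA levels do not give protein levels. Metallothioneins are small cysteine-rich proteins that bind zinc and copper, and their genes are switched on by metals, glucocorticoids and inflammatory signals. In the lung, alveolar macrophages and the epithelium take part in keeping iron away from inhaled microbes and from oxidation reactions.

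The metallothionein promoters are shown because both genes rose and because the metal response element (MRE), the binding site of the zinc-sensing factor encoded by Mtf1, was first defined in promoters of this kind. The 250 bases before the annotated start were taken from RefSeq (assembly GRCr8, which is not the assembly of the counts), and the count table's Mt1a matched RefSeq Mt1 by synonym. Capitals mark the MRE core, searched as TGCACNC or TGCGCNC on both strands. The Mt1a window is chr19:10832976-10833225 and the Mt2A window chr19:10838709-10838958, both on the minus strand and written 5′ to 3′.
Mt1a: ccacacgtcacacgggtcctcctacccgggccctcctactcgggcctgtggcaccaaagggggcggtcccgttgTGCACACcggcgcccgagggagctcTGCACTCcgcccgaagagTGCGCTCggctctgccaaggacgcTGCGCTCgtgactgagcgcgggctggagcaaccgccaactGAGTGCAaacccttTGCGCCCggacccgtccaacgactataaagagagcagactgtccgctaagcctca
Mt2A: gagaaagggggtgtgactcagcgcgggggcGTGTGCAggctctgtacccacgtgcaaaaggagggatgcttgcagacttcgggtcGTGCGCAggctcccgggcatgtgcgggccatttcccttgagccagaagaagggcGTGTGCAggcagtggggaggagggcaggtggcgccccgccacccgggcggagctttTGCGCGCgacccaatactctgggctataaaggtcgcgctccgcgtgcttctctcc
The Mt1a window held 6 separate MRE cores and the Mt2A window 4. Of the 33469 RefSeq promoter windows of the same length, 20.6% held at least 1 core, 0.128% at least 4 and 0.0239% at least 6. The core was defined in metallothionein promoters, so these shares are no independent result about the 2 genes. Each metallothionein window also held 1 match to the antioxidant response element core TGACNNNGC, which no MRE core overlapped and which 10.1% of all windows held. Each had 1 TATAAA, found in 12.9% of windows. The hypoxia response element core (ACGTG or GCGTG, both strands) matched 1 time in the Mt1a window, where 36.7% of all windows had at least 1. In the Mt2A window it matched 5 times in 4 separate stretches, 2 of the matches overlapping an MRE core, where 1.32% of all windows had at least 4. No other annotated gene lay in the 4958 bases between Mt1 and Mt2A. RefSeq promoter windows were also found for Tfrc (1), Slc11a2 (2 start sites) and Slc40a1 (1). The Tfrc window held 2 separate stretches of MRE core letters, where 3.99% of all windows had at least 2, and the Slc11a2 and Slc40a1 windows held 0. The Tfrc window also held 2 hypoxia response element cores, where 12.9% of all windows had at least 2. Slc39a14, Slc11a1, Fth1 and Ftl1 had no entry. These matches describe letters in a window and were not tested as binding sites.

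**Figure D1:**
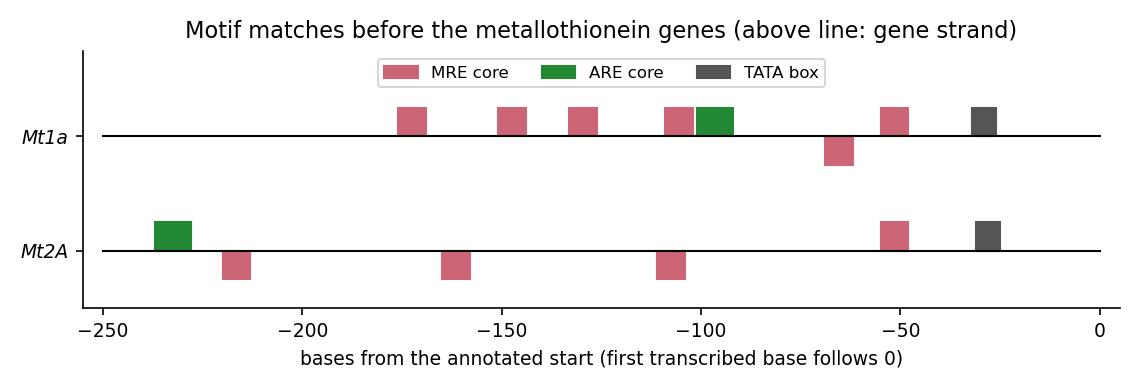
Positions of motif matches in the 250 bases before the annotated starts of Mt1a and Mt2A, as bases from the start (x axis), with boxes above the line for matches on the strand of the gene and below it for the other strand. Mt1a has 6 MRE cores and Mt2A has 4, and each has 1 TATA box near the start; hypoxia response element matches are not drawn.

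Libraries held 8693259 to 16603697 counts in air and 9917387 to 14735245 in CNC. Levels are given as CPM, the count of a gene scaled to a common library size by TMM. The p-values came from the quasi-likelihood test of edgeR and were adjusted by Benjamini-Hochberg over all 15019 tested genes, and a gene was called at an adjusted p under 0.05. Of the 9 genes 6 rose after CNC and 0 fell. Over all tested genes 24.6% were called, 13.2% higher and 11.4% lower. No gene of the 9 was called lower at an unadjusted p under 0.05 either, nor by the DESeq2 Wald test or limma-voom (0 each), and all 9 estimates were above 0. In 5 of the 9 genes every CNC rat lay above every air rat, against 6.82% of all tested genes, and in 0 of the 9 did every CNC rat lie below, against 4.7%. The median log2 fold change was 0.60 over the 9 genes and -0.0026 over all tested genes. In pieces of whole lung, a change in the number of cells that express a gene and a change in RNA per cell cannot be told apart.

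**Figure D2:**
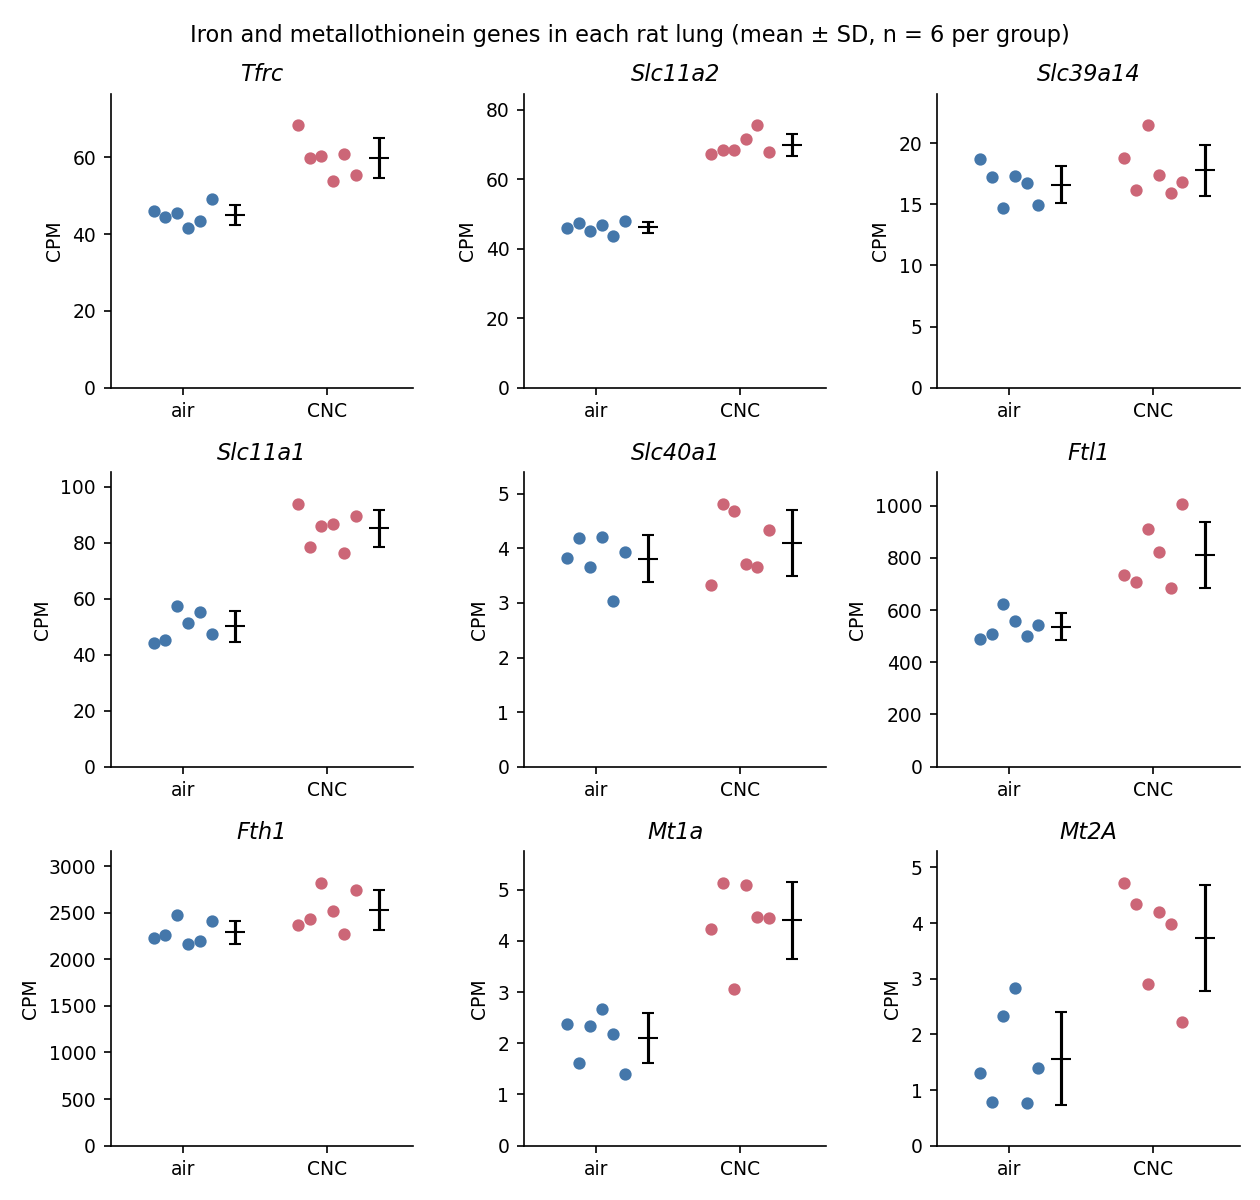
Level of each of the 9 genes (CPM, axes from 0) in the 6 air and 6 CNC rats, 1 point per rat, with the mean and SD beside the points. Tfrc, Slc11a2, Slc11a1, Ftl1 and Mt1a do not overlap between groups, whereas Slc39a14, Slc40a1, Fth1 and Mt2A do.

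Both genes of the transferrin route rose, and the third importer did not pass the test. Tfrc, the transferrin receptor, ran from 41.5 CPM through a median of 44.98 to 49.2 in air, and from 53.7 through 60.1 to 68.4 in CNC. The groups did not overlap, and CNC replicate 1 was the highest. The rise was 1.33-fold (log2 fold change 0.41 ± 0.06 SE, adjusted p = 7.41e-05, n = 6 per group). Slc11a2, which carries ferrous iron out of the endosome, ran from 43.7 through 46.4 to 48.1 CPM in air and from 67.3 through 68.4 to 75.7 in CNC. The gap between its groups was wider than the range within either. The rise was 1.51-fold (log2 fold change 0.60 ± 0.04 SE, adjusted p = 1.56e-07), and Slc11a2 ranked 7th of all 15019 genes by p. Slc11a2 counts join transcripts from different start sites, which the table does not separate. Slc39a14, a zinc transporter family member that imports iron not bound to transferrin, ran from 14.7 through 17.0 to 18.7 CPM in air and from 15.9 through 17.2 to 21.5 in CNC. Its groups overlapped, with 2 CNC rats above all air rats. The estimate was 0.09 ± 0.08 SE on the log2 scale (95% interval -0.08 to 0.27, adjusted p = 0.458).

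Slc11a1, which pumps divalent metals out of the phagosome of macrophages and neutrophils and was identified as a locus of resistance to intracellular microbes in mice, rose. It ran from 44.02 through 49.5 to 57.5 CPM in air and from 76.4 through 86.4 to 93.8 in CNC. The groups did not overlap. The rise was 1.70-fold (log2 fold change 0.77 ± 0.07 SE, adjusted p = 2.1e-06). Slc40a1, the exporter that hepcidin removes from the membrane, had only 32 to 70 counts per library in air and 41 to 66 in CNC. It ran from 3.04 through 3.88 to 4.201 CPM in air and from 3.34 through 4.02 to 4.81 in CNC, and the groups overlapped. The estimate was 0.10 ± 0.12 SE (95% interval -0.17 to 0.36, adjusted p = 0.646), so a change within that interval was not excluded.

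The ferritin light chain rose, and the heavy chain did not pass the test. Ftl1 ran from 489 through 524 to 623 CPM in air and from 685 through 779 to 1006 in CNC. The groups did not overlap, and CNC replicates 6 and 3 were highest. The rise was 1.51-fold (log2 fold change 0.60 ± 0.09 SE, adjusted p = 0.000167). Fth1, the heavy chain, ran from 2162 through 2247 to 2473 CPM in air and from 2275 through 2475 to 2819 in CNC. All 6 CNC rats lay above the air median and 3 above every air rat, so the groups overlapped. Fth1 did not pass the test at 1.10-fold (log2 fold change 0.14 ± 0.05 SE, adjusted p = 0.0704). That result lay near the threshold: it passed without air replicate 3 (adjusted p = 0.0414), without CNC replicate 5 (adjusted p = 0.0267) and by the DESeq2 Wald test (adjusted p = 0.0441). 

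The balance of the chains within each rat differed between the groups. The log2 ratio of Ftl1 to Fth1 CPM was -2.097 ± 0.101 in air and -1.65 ± 0.12 in CNC (SD, n = 6 per group). It ran from -2.19 to -1.95 in air and from -1.78 to -1.45 in CNC, without overlap. The difference of 0.45 on the log2 scale gave p = 0.00216 when all 924 splits of the rats were enumerated (exact permutation test, 2-sided), which is the smallest p the design allows, and adjusted p = 0.00649 over the 3 ratios examined. The other ratios did not pass: Slc11a1 over Slc11a2 differed by 0.17 on the log2 scale (exact permutation adjusted p = 0.195) and Mt2A over Mt1a by 0.30 (exact permutation adjusted p = 0.403). A ratio shows that the chains changed unequally and not which of them changed. 

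**Figure D3:**
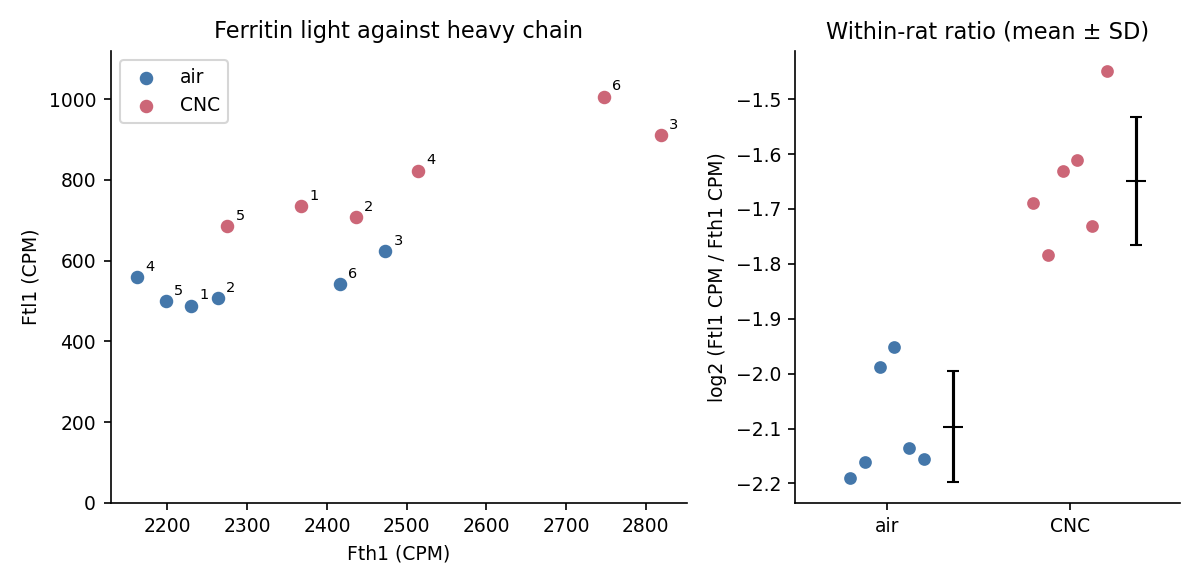
Left, Ftl1 against Fth1 in CPM, 1 point per rat with its replicate number (the x axis does not start at 0). Right, the log2 ratio of Ftl1 to Fth1 in each rat with the mean and SD, from -2.19 to -1.95 in air and from -1.78 to -1.45 in CNC.

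Within the CNC group the chains varied together from rat to rat by Pearson's r, though not by adjusted Spearman's rho. Pearson's r of log2 CPM was 0.926 (exact permutation p = 0.0111, adjusted p = 0.0444 over 4 relations) and Spearman's rho was 0.886 (exact permutation p = 0.0333, adjusted p = 0.133). Without CNC replicates 3 and 6, the rats farthest from the median, r was 0.83 over the other 4. In air r was 0.640 (exact permutation p = 0.183, adjusted p = 0.367) and rho 0.371 (exact permutation p = 0.497, adjusted p = 0.564), and r was -0.719 without air replicates 3 and 6, so the relation in air rested on those rats. CNC replicates 3 and 6, with the most ferritin RNA, lay at an end of the CNC group in several marker lists. Replicates 3 and 6 had the lowest sums of that group for alveolar macrophage (965 and 968 CPM), monocyte and interstitial macrophage (752 and 805 CPM), neutrophil (445 and 546 CPM) and type 2 markers (32808 and 31206 CPM). Replicate 1 was close to replicate 6 in the neutrophil sum, at 551 CPM. The endothelial sums of replicates 3 and 6 were the highest (5432 and 5467 CPM). The part of these differences in the ferritin levels was not tested, and Ftl1 was called higher without both rats as well.

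Rat ferritin genes have many near-identical copies, and reads that match several of them may have been split or dropped. The RefSeq gene table lists 6 copies or pseudogenes of Fth1 and 22 of Ftl1, of which 1 and 3 had a row in the count table. LOC689130, which the table names Fth1-ps5, held 1.755% of the Fth1 count in air and 1.91% in CNC, and was called higher (log2 fold change 0.27 ± 0.06 SE, adjusted p = 0.00577). The Ftl1 copies held 0.113 to 0.400% of the Ftl1 count in air. With these rows added to Fth1 and Ftl1, an alternative chosen after seeing the data, the log2 fold changes were 0.15 (adjusted p = 0.0582) and 0.60 (adjusted p = 0.000148).

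Both metallothioneins rose, from low counts. Mt1a had 12 to 35 counts per library in air and 43 to 74 in CNC, or from 1.39 through 2.26 to 2.67 CPM and from 3.05 through 4.45 to 5.13 CPM. The groups did not overlap even in raw counts. Mt1a rose 2.08-fold (log2 fold change 1.06 ± 0.17 SE, adjusted p = 0.000312). Mt2A had 8 to 37 counts in air and 22 to 61 in CNC, or from 0.760 through 1.34 to 2.83 CPM and from 2.22 through 4.09 to 4.72 CPM. CNC replicate 6 lay below air replicates 3 and 4, and the other 5 CNC rats lay above all air rats. Mt2A rose 2.39-fold (log2 fold change 1.26 ± 0.29 SE, adjusted p = 0.00497). Within groups, Mt1a and Mt2A were not shown to vary together (air r = 0.510, exact permutation p = 0.276, rho = 0.486, exact permutation p = 0.356; CNC r = 0.422, exact permutation p = 0.410, rho = 0.314, exact permutation p = 0.564; adjusted p from 0.369 to 0.564). Without the 2 rats farthest from the Mt1a median, r was 0.815 in air and 0.086 in CNC. Of the other members of the family, Mt3 and Mt4 were not tested, with 2 and 0 counts summed over air and 4 and 0 over CNC. Mt1m, which RefSeq calls a pseudogene and which was named after its values were seen, had 22 counts over the air group and 46 over the CNC group and was not tested either. Mtf1, the metal-responsive factor, had an estimate of 0.08 ± 0.07 SE (adjusted p = 0.445).

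Leaving out any single rat ended none of the 6 calls. Ftl1, Mt1a and Mt2A lost their calls when a circadian clock covariate was added to the fit. The covariate was the first principal component of the scaled log2 CPM of the listed clock genes. The loss was not particular to these 3 genes, as calls over all tested genes went from 3691 to 853. In that clock list 7 of 15 tested genes rose and 6 fell, against 13.2% and 11.4% of all tested genes. The sum of the list ran from 730 to 1035 CPM in air and from 988 to 1230 in CNC. This sum adds genes that moved in opposite directions and is not the covariate. The transcription factor Bhlhe41 rose 1.97-fold, and the activators Arntl and Npas2 fell 1.94- and 1.73-fold. With the covariate the log2 fold change of Ftl1 was 0.42 ± 0.18 SE (adjusted p = 0.186), that of Mt1a 0.51 ± 0.30 SE (adjusted p = 0.352) and that of Mt2A 0.69 ± 0.52 SE (adjusted p = 0.489). Tfrc was larger with it, at 0.65 ± 0.09 SE (adjusted p = 0.00192), Slc11a2 stood at 0.61 ± 0.08 SE (adjusted p = 0.00148) and Slc11a1 at 0.68 ± 0.14 SE (adjusted p = 0.0127). The covariate had a correlation of 0.863 with treatment over the 12 rats, so a shift of the clock and the exposure cannot be told apart fully. The time of day at which lungs were taken is not given in the sources used here.

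**Figure D4:**
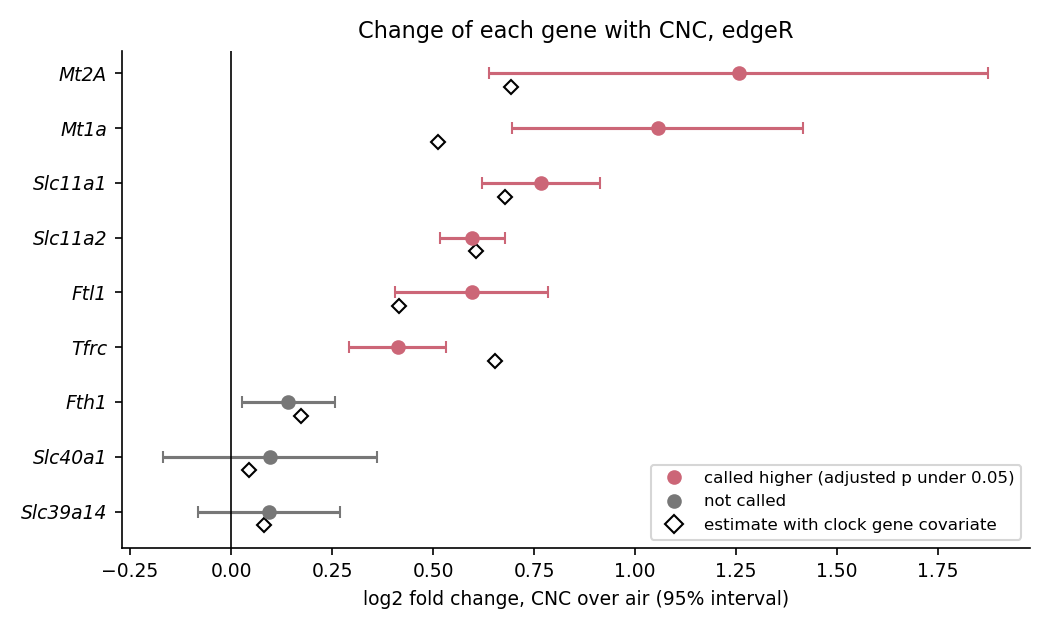
Log2 fold change of each gene, CNC over air, with its 95% interval by edgeR (circles, red where called), and the estimate with the clock gene covariate (open diamonds). With the covariate Mt1a, Mt2A and Ftl1 move towards 0, Tfrc moves away from 0 and Slc11a2 stays at about 0.6.

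Markers of several lung cell types moved as well. The shares over all tested genes were 13.2% higher and 11.4% lower. In the alveolar macrophage list 7 of 12 tested markers rose and 2 fell, and the sum ran from 726 to 833 CPM in air and from 965 to 1311 in CNC. Plet1 (1.95-fold), the proton pump subunit Atp6v0d2 (4.23-fold) and Cd68 (2.03-fold) had the smallest adjusted p in it, and Marco was listed at 0 in all 12 libraries. Of 11 neutrophil markers 6 rose and 1 fell, with sums from 172 to 277 CPM in air and from 445 to 706 in CNC. Those of smallest adjusted p were Il1r2 (3.85-fold), S100a9 (3.78-fold) and Cd177 (7.12-fold), all higher. Without air replicates 4 and 5, 5 neutrophil markers were called higher and 0 lower, and without CNC replicates 3 and 6, 5 and 1. Of 10 monocyte and interstitial macrophage markers 5 rose and 3 fell, with overlapping sums (819 to 904 CPM in air and 752 to 890 in CNC). The mean sum was 872 CPM in air and 839 in CNC. The 3 markers of smallest adjusted p were Cd14 (1.32-fold), Itgam (1.71-fold) and C1qb (1.59-fold), all higher, unlike the mean sum. The 3 markers called lower had larger adjusted p and are not named. Without CNC replicates 3 and 6, 5 of the 10 were called higher and 1 lower, and without air replicates 4 and 5, 5 and 2. In the alveolar type 2 list 8 of 10 markers rose and 0 fell, with sums from 23526 to 30698 CPM in air and from 31206 to 38254 in CNC. The markers with the smallest adjusted p, not the largest change, were Lpcat1, Napsa and Sftpa1 (1.34-, 1.30- and 1.54-fold). Slc11a1 is a phagocyte gene and the ferritins are expressed in nearly all cells. The part of these cell types in the rises of Slc11a1, Ftl1, Tfrc, Slc11a2 and the metallothioneins was not tested.

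Other markers went the other way, where 11.4% of all tested genes were called lower and 13.2% higher. In the red cell list 5 of 6 tested markers fell and 0 rose, with sums from 2523 to 3256 CPM in air and from 1716 to 2303 in CNC, among them Hba1 (1.37-fold lower) and Hbb-b1 (1.45-fold lower). Tfrc, which red cell precursors carry in quantity, rose in the same libraries, and the part of red cells was not tested. Of the endothelial markers 9 of 10 fell (Calcrl 1.29-, Cdh5 1.29- and Tek 1.23-fold), of the type 1 markers 5 of 7 (Cav1 1.29-, Clic5 1.16- and Hopx 1.15-fold) and of the airway secretory markers 2 of 5 (Scgb1a1 1.21-fold and Bpifa1 11.1-fold, which was uneven among air rats at 14.1 ± 25.5 CPM SD), and 0 rose in any of these lists. Without air replicates 4 and 5, 0 of the 5 airway secretory markers were called, and without CNC replicates 3 and 6, 3 of the 7 type 1 markers were. Heart muscle markers summed to 14.9 to 412 CPM in air, highest in replicates 4 and 5, and to 13.8 to 123 CPM in CNC, and 1 of 8 (Kcnj3) was called lower. With these 2 air rats left out, with CNC replicates 3 and 6 left out, and with a heart muscle covariate, the same number of the 9 genes, 6, was called higher. Of 10 glucocorticoid targets 0 rose and 1 fell (Zbtb16, at 23.7 ± 19.5 CPM SD in air), and the sum ran from 639 to 839 CPM in air and from 640 to 926 in CNC. The median log2 fold change of that list was above 0, at 0.13, unlike its single call. With upper-quartile scaling or library size alone 3 of the 10 were called lower. Without air replicates 4 and 5, 1 was called higher and 0 lower, and without CNC replicates 3 and 6, 0 were called in either direction.

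Transferrin, lipocalin 2 and a pair of ferric reductases rose. Of 8 tested genes for extracellular iron binding and ferric reduction 4 rose, 0 fell and 4 did not pass, with a median log2 fold change of 0.46. Over all tested genes 13.2% were called higher and 11.4% lower, and the lists were not tested against these shares. Tf, which encodes transferrin, the ligand of the receptor that rose, had 74.7 ± 11.9 CPM in air and 152.8 ± 25.7 in CNC (SD, n = 6 per group) and rose 2.04-fold (adjusted p = 1.3e-05). Lcn2, which traps bacterial iron carriers, rose 5.49-fold (adjusted p = 1.05e-06), the endosomal reductase Steap3 1.66-fold (adjusted p = 0.00107) and the surface reductase Cybrd1 1.29-fold (adjusted p = 1.57e-05). Every CNC rat lay above every air rat for each of these 4 genes, against 6.82% of all tested genes. These 4 were named because they were called, which favours genes whose groups separate. The 4 that did not pass were Slc22a17, Scara5, Steap2 and Steap4, with log2 estimates from -0.28 (Scara5) to 0.55 (Steap4). Their groups overlapped.

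Genes around ferroportin went in both directions. Of the 5 tested members of the export and hepcidin list 2 rose and 3 fell, with a median of -0.18. The shares over all tested genes were 13.2% higher and 11.4% lower. The ferroxidase ceruloplasmin, Cp, rose 1.18-fold (adjusted p = 0.00787) and Hfe, a regulator that binds the transferrin receptor, 1.26-fold (adjusted p = 0.00284). The membrane ferroxidase Heph fell 1.19-fold (adjusted p = 0.00285) and Bmp6, which induces hepcidin in liver, 1.26-fold (adjusted p = 0.000202). The third gene that fell was Neo1, at 1.13-fold (adjusted p = 0.0172). Without CNC replicates 3 and 6, 6 genes of the list were tested, of which 2 rose and 2 fell. Hamp, which encodes hepcidin, was not tested, with 28 counts summed over each group.

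Of the 7 tested genes that sense or deliver cytosolic iron 2 rose, 0 fell and 5 did not pass, with a median of 0.03. Among all tested genes 13.2% were called higher and 11.4% lower, and so short a list was not tested against these shares. Aco1, whose protein is iron regulatory protein 1 when it lacks its iron-sulfur cluster, rose 1.20-fold (adjusted p = 7.74e-05). Ireb2, which encodes iron regulatory protein 2, had 106.98 ± 5.04 CPM in air and 106.7 ± 5.48 in CNC (SD, n = 6 per group). Ncoa4, the receptor that sends ferritin to lysosomes, had 205 ± 6.29 CPM in air and 203 ± 15.8 in CNC. The signs of the Ireb2 and Ncoa4 estimates (-0.0031 and -0.010 on the log2 scale) changed when single rats were left out. The iron chaperone Pcbp1 was called at 1.07-fold (adjusted p = 0.0405), a call that ended without any 1 of 8 rats (air replicates 1, 2, 3 and 6 and CNC replicates 2, 3, 4 and 5, adjusted p from 0.0583 to 0.0938). The Pcbp1 call also ended with upper-quartile scaling (adjusted p = 0.0794), library size alone (0.130), no count filter (0.0607), the heart muscle covariate (0.0521) and CNC replicates 3 and 6 left out (0.0504).

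Heme genes were mostly higher where they were called. Over all tested genes 13.2% were called higher and 11.4% lower, and the lists below were not tested against these shares. Of 12 tested genes of heme uptake, breakdown and export 5 rose and 0 fell, with a median of 0.21. With upper-quartile scaling, library size alone, air replicates 4 and 5 left out or CNC replicates 3 and 6 left out, 4 rose. Heme oxygenase 1, Hmox1, which frees iron from heme, had 36.3 ± 6.44 CPM in air and 75.6 ± 3.78 in CNC (SD, n = 6 per group) and rose 2.097-fold (adjusted p = 8.19e-07). The hemoglobin and heme scavengers Hp and Hpx rose 2.64- and 2.62-fold (adjusted p = 5.26e-07 and 1.53e-05). The biliverdin reductase Blvra was called at 1.18-fold (adjusted p = 0.0265), a call that ended without air replicate 1 or 2 or CNC replicate 1, 2 or 4 (adjusted p from 0.0517 to 0.0661). In heme synthesis 4 of 9 tested genes rose and 1 fell, with a median of 0.06. Without either of those pairs of rats 3 rose and 1 fell. Alas1, the first enzyme in most cells, rose 1.32-fold (adjusted p = 0.00324), Alad 1.20-fold and Urod 1.14-fold (adjusted p = 0.00205 and 0.00193). Alas2, its counterpart in red cell precursors and a member of the red cell list, fell 1.49-fold (adjusted p = 0.00011). The 15 tested mitochondrial iron and iron-sulfur genes had a median of 0.02, which was -0.0020 with library size alone. Of these 15 genes 12 did not pass, 0 fell and 3 rose, against 11.4% lower and 13.2% higher over all tested genes. They were the cluster scaffold Nfu1 (1.17-fold, adjusted p = 0.00495), the iron importer Slc25a37 (1.15-fold, adjusted p = 0.0232, lost without air replicate 2 or CNC replicate 2, or without CNC replicates 3 and 6 at 0.0868) and the ferredoxin Fdx1 (1.16-fold, adjusted p = 0.0292, lost without air replicate 2, 4 or 5 or CNC replicate 2, 3 or 4, without air replicates 4 and 5 at 0.118, or with the heart muscle covariate at 0.0503).

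The called zinc and copper genes changed by less than the metallothioneins. Among all tested genes 13.2% were called higher and 11.4% lower, and the zinc and copper lists were not tested against these shares. Of 12 tested importers of the family that holds Slc39a14, 6 rose and 0 fell, with a median of 0.12. With upper-quartile scaling, library size alone or CNC replicates 3 and 6 left out 5 rose, and without air replicates 4 and 5, 4 rose. Slc39a2 rose 1.42-fold (adjusted p = 0.000912), Slc39a11 1.26-fold (adjusted p = 0.00149), Slc39a8, a close relative of Slc39a14, 1.17-fold (adjusted p = 0.00313) and Slc39a1 1.10-fold (adjusted p = 0.00342). Of 7 tested zinc exporters 1 rose and 1 fell, with a median of -0.0090. Slc30a1, which like the metallothioneins is a target of Mtf1, had 38.6 ± 2.14 CPM in air and 38.4 ± 2.56 in CNC (adjusted p = 0.932), with a sign that changed when single rats were left out. Slc30a7, which loads zinc into the Golgi, rose 1.24-fold (adjusted p = 0.000505). Slc30a3 was called 1.21-fold lower (adjusted p = 0.0206, but 0.0507 without air replicate 2, 0.0697 with CNC replicates 3 and 6 left out and 0.0622 with air replicates 4 and 5 left out). Of 10 tested copper genes 3 rose and 0 fell, with a median of 0.02, which was -0.0026 with library size alone. Without air replicates 4 and 5, 2 rose and 1 fell, and without CNC replicates 3 and 6, 2 rose and 0 fell. The 3 that rose with all rats were the chaperones Cox17 (1.19-fold, adjusted p = 0.00644) and Atox1 (1.13-fold, adjusted p = 0.0184) and the transporter Slc31a2 (1.254-fold, adjusted p = 0.00658). Atox1 had adjusted p = 0.0974 with CNC replicates 3 and 6 left out and 0.0503 with air replicates 4 and 5 left out. With the clock covariate 853 of all tested genes were called, against 3691 without it. Of the 30 called genes named from these lists 8 passed with it. They were Lcn2, Tf, Cybrd1, Hp, Hmox1, Hpx, Slc30a7 and Slc39a8, and the adjusted p of the other 22 ran from 0.0557 to 0.916. All 22 kept their sign, and their standard errors were 1.49 to 2.04 times as large. The estimate was at least as large with the covariate for 5 of them (Hfe, Alad, Fdx1, Slc39a2 and Slc31a2), as for Slc39a2 at 0.64 ± 0.19 SE against 0.51 ± 0.09 SE on the log2 scale. It was less than 0.5 times as large for 4 (Steap3, Heph, Pcbp1 and Alas1), as for Alas1 at 0.03 ± 0.13 SE against 0.40 ± 0.09 SE.

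**Figure D5:**
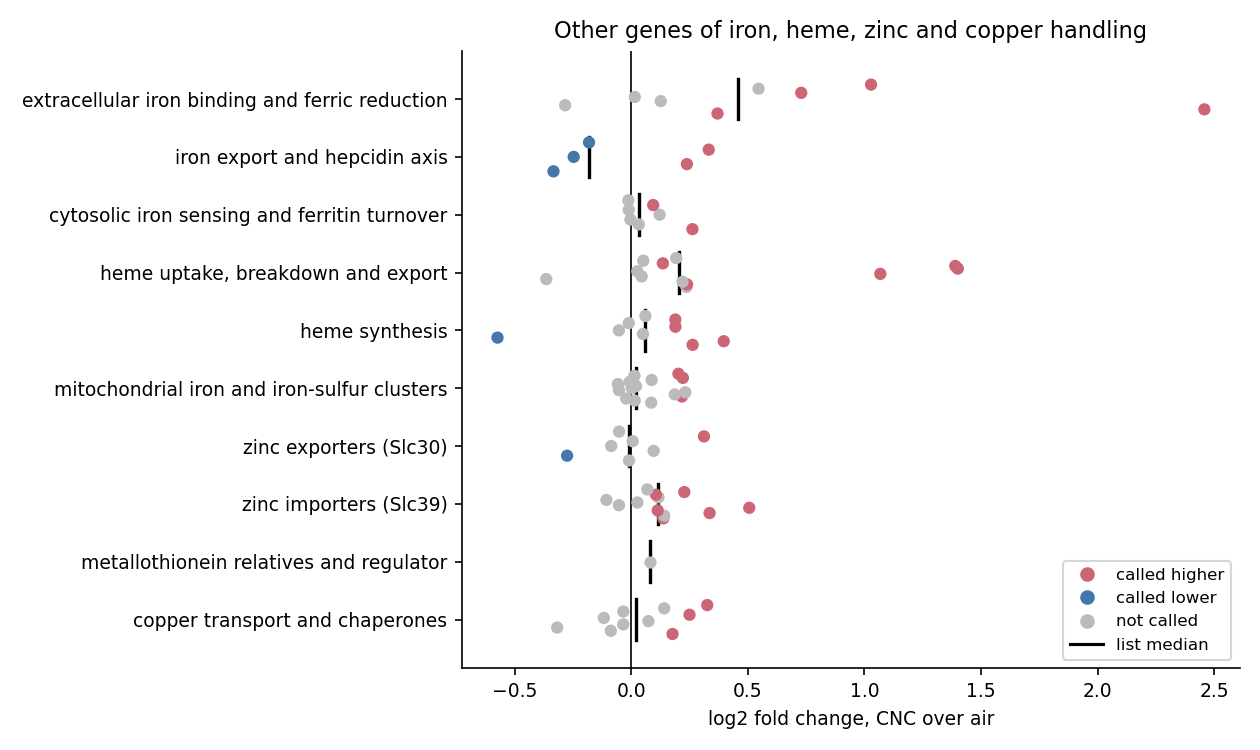
Log2 fold change, CNC over air (x axis), of every tested gene in the 10 lists of iron, heme, zinc and copper handling (rows), coloured by call, with the median of each list as a bar. The largest rises are Lcn2, Hp, Hpx, Hmox1 and Tf, and the list medians run from -0.18 to 0.46.

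The genes that varied most like each of the 9 from rat to rat were found by Pearson's r of log2 CPM over the 12 rats after each group's mean was subtracted, among 12102 or 12103 genes of at least 5 CPM. For Tfrc these were Ube3a (0.950), Uggt1 (0.933) and Cbl (0.932). For Fth1 they were Rnf14 (0.962), the glutathione transferase Mgst1 (0.948) and RGD1562310 (0.941), and for Ftl1 Cryab (0.952), Chchd5 (0.915) and Slc48a1 (0.897), a heme transporter of lysosomes. For the other 6 genes the 18 highest values ran from 0.841 to 0.931. These are the largest of many values over 12 rats that share library depth and tissue composition, and they are given as a description with no test.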

How the data were processed

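The authors deposited 1 table of raw counts per gene symbol, with no normalization, for 12 libraries (strand-specific, polyadenylated RNA, 12 PCR cycles, per the labels' protocols). HTSeq 0.11.2, SAMtools 1.8, HISAT2 2.1.0, Cufflinks, Trimmomatic 0.35 and bcl2fastq 2.19 appear in the submitters' processing notes with no role stated. The table's name carries the rat build Rnor6. For the annotation, the strand setting and reads with several matches, nothing was found in the sources used here, so copies and overlapping genes are uncertain. Columns were matched to rats by the animal number, and groups follow the labelled treatment. Replicate numbers only name a rat. Rats were housed 3 per cage, and the cages were not analysed here.

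In R 4.3.3, genes passing filterByExpr in edgeR 4.0.16 (minimum count 10, minimum total 15) were scaled (TMM) and compared, CNC against air, using glmQLFit followed by glmQLFTest. The SE is the log2 fold change over the square root of F. Log2 CPM use a prior count of 2. The 30 pairs of libraries within groups had a chi-square per degree of freedom of 2.6 to 7.93, so no library looked like a repeat of another. The procedure was also run on simulated data, and the outcome is not given here. Alternatives used DESeq2 1.42.0, limma 3.58.1, other scalings, filters and covariates, and rats left out. Motifs were searched in RefSeq promoter windows (GRCr8), and figures used Python 3.11.15 with matplotlib 3.10.9.

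The genes, lists, doubted rats and alternatives were chosen with earlier results of these data known. The rule named all 9 genes, up to 4 called genes of smallest adjusted p per metal list (2 of highest CPM where none was called), a panel (Hmox1, Lcn2, Cp, Hamp, Tf, Ncoa4, Ireb2, Aco1, Slc30a1, Slc39a8 and Mtf1), up to 3 called markers per cell type or state list, and the 3 genes most alike to each of the 9. For 6 of the 9 the range of those values is given in place of the names. Amplified reads are not independent molecules.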

Additional observations from a re-analysis of the deposited data

Results flagged for a closer look

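In 8 of 92 groups of 6 values examined, the highest or lowest rat stood apart from the other 5 by more than Dixon's 95% critical value, which chance gives in about 1 in 20 groups. None of the 8 was a value of the 9 iron and metallothionein genes. Air replicate 3 was lowest for Cp at 186 CPM and highest for Alad at 62.4 CPM. Air replicate 5 was highest for Hmox1 at 48.7 CPM, below all CNC rats, and lowest for Slc39a1 at 138 CPM. Air replicate 1 was lowest for Slc30a3 at 9.29 CPM and highest for Mtf1 at 15.6 CPM. CNC replicate 4 was highest for Slc39a1 at 169.7 CPM and for Cox17 at 57.8 CPM.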

How the results depend on the processing

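Over all alternatives run, the 9 genes gave 209 values, of which 203 kept their direction and their side of the threshold, 3 lost a call, 3 gained one (all Fth1) and 0 changed sign. Leaving out each rat gave 6 to 7 genes called higher, 0 called lower, and 3091 to 3722 of all genes called. With the clock covariate 3 of the 9 genes were called higher and 853 genes in all, against 6 and 3691. Other scalings, filters, tests, pairs of rats left out together and the heart muscle covariate gave 6 genes called higher, except the DESeq2 Wald test with 7. Estimates near 0 changed sign. Leaving out single rats, Ireb2 ran from -0.026 to 0.017, Ncoa4 from -0.038 to 0.022 and Slc30a1 from -0.031 to 0.024. Ireb2 was 0.00060 without a count filter, and without CNC replicates 3 and 6 Ireb2 was 0.0046 and Ncoa4 0.025. With the clock covariate Ireb2 was 0.16, Ncoa4 0.088 and Slc30a1 0.14. The cause was not tested. Gene list counts were also taken, as a choice made after seeing the data, under 3 other scalings and without the doubted pairs of rats, and the alveolar macrophage list then had up to 10 of 12 markers higher (without CNC replicates 3 and 6). Low counts limit Slc40a1, Mt1a and Mt2A most. No paired analysis was possible because the labels give the rats of the groups no shared numbers.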
